A study of Mus musculus with 4 samples.

Results

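The DEAD-box and DEAH-box RNA helicases were followed as a gene family in mouse fetal liver erythroid cells whose Adar gene was targeted. The family was taken by name, as every gene of the deposited table called Ddx or Dhx with a number, leaving out Ddx58, Dhx58, Ddx3x and Ddx3y. It held 46 of the 10716 genes in the table. The names did not depend on any measured value. The RNA came from fetal liver erythroid cells of embryonic day 14.5 C57BL/6 mice, sorted as YFP-positive through the R26eYFP reporter. In 2 libraries labelled knockout (replicates 1 and 2), Adar was to be deleted by Cre under the erythropoietin receptor gene, Epor. Their genotype is given as Epor-Adar / +, and the loss of one or of both alleles is not stated. The other 2 libraries (replicates 3 and 8), called controls here, are labelled wild type, and the labels do not say whether they carry Cre. The labels do not say whether each library came from a separate embryo. The Y-linked counts given below differ between the knockout-labelled libraries, so those did not come from the same single embryo, whereas for the controls the spread may be technical.

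These helicases use ATP to part short RNA duplexes or to strip proteins from RNA. The DEAD-box enzymes mostly open a duplex locally, whereas the DEAH-box enzymes travel along an RNA strand. Between them they serve ribosome assembly, the spliceosome, the export of mRNA from the nucleus, translation, mRNA decay and mitochondrial RNA, roles that are known mainly from yeast and human cells. ADAR1, the product of Adar, edits adenosines in double-stranded RNA to inosines, so it acts on the same kind of RNA that many of these helicases unwind. The comparison asks whether the transcripts of the helicases themselves differed when Adar was targeted.

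The family is named after the Walker B motif (motif II), a stretch of 4 codons in the ATP-binding core. It was sought in the longest complete coding sequence of each gene (GENCODE vM1, build NCBIM37), at least 60 codons after the codons of motif I. It was found in 44 of the 46 genes. The box read DEAD in 24 genes, DEAH in 9, DEVH in 4, DEVD in 3, DEIH in 2, DECD in 1 and DESD in 1. In Ddx26b and Dhx32 the pattern of motif I was not found, so by this rule no box could be placed in them. Ddx26b is related to an Integrator subunit, and Dhx32 is a family relative with a divergent core. Ddx11 has the name of a DEAD-box gene, but its box reads DEAH. The coding stretches below belong to the members with the smallest unadjusted p in the comparison (Dhx40 and Ddx24), to the neighbouring paralogs Ddx21 and Ddx50, to the double-stranded RNA helicase gene Dhx9 and to the most abundant member per length, Ddx5. Each is the sense strand, 5′ to 3′, with the 12 bases of the box in capitals.
Dhx40: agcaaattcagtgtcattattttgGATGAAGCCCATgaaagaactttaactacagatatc
Ddx24: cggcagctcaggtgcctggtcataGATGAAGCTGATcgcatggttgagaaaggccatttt
Ddx21: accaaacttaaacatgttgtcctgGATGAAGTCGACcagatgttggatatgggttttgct
Ddx50: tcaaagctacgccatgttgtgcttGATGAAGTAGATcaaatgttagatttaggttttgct
Dhx9: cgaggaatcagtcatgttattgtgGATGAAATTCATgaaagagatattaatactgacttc
Ddx5: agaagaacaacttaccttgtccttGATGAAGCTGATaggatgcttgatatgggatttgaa
On NCBIM37 the box codons lie, on the minus strand in each case, at chr11:86614489-86614500 for Dhx40, chr12:104655979-104655990 for Ddx24, chr10:62054629-62054640 for Ddx21, chr10:62103259-62103270 for Ddx50, chr1:155316019-155316030 for Dhx9 and chr11:106646507-106646518 for Ddx5. All are coding exon sequence. The sets show both box classes, the DEVD variant that Ddx21 and Ddx50 share, and the DEIH variant of Dhx9.

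The total counts ran from 28356401 to 44016809 per library, and the members' counts from 29 to 38100. Adar had 67.1 and 102 CPM (the CPM scale of edgeR, after TMM scaling of library size) in knockout-labelled samples and 50.9 and 46.9 in the controls, with a log2 fold change of 0.79 (SE 0.25, edgeR adjusted p = 0.377). Both knockout-labelled values were above both controls, so the gene's summed count gives no check of the labels by a loss of Adar RNA. Reads per exon were not analysed here. The Y-linked gene Eif2s3y went against the sex label in 3 libraries: it had 106 CPM in knockout-labelled replicate 1 and 72.2 in control replicate 3, both labelled female, whereas the male-labelled knockout replicate 2 had 0 counts. The erythroid markers (9 of 9 measured) summed to 69496 and 69699 CPM in knockout-labelled samples and 98854 and 65335 in the controls. Granulocyte markers (5 of 6 measured) summed to 217 and 29.2 CPM in knockout-labelled samples and 30.9 and 34.9 in the controls, and megakaryocyte markers (4 of 5) to 121 and 75.3 against 39.4 and 64.3. Of the megakaryocyte sums, Itga2b made up 103 and 59.3 CPM against 19.8 and 51.0. Pf4 and Ppbp were also highest in knockout-labelled replicate 1, whereas Gp9 was lowest there (8.48 and 12.4 CPM against 16.8 and 11.1). Macrophage markers (8 of 10) summed to 50.9 and 25.0 CPM against 48.4 and 29.5, of which Lyz2, a gene that granulocytes also express, made up 43.1 and 8.32 against 9.68 and 10.9. The macrophage markers Vcam1 (0.555 and 0.492 CPM against 5.11 and 1.80), C1qa (0.196 and 0.803 against 3.55 and 1.67), C1qb (0.848 and 2.02 against 6.53 and 3.15) and Emr1 (1.17 and 1.45 against 6.09 and 2.45) had lower values in both knockout-labelled libraries. Their unadjusted p ran from 0.00466 (Vcam1) to 0.0248 (C1qb), and none passed over all genes (edgeR adjusted p from 0.278 to 0.391). In the other measured macrophage markers, Csf1r, Mrc1, Cd68 and Lyz2, the groups overlapped. Csf1r had 1.57 and 4.07 CPM against 9.21 and 3.80, and Mrc1 1.57 and 4.77 against 4.79 and 3.25. Cd68 had 1.92 and 3.06 CPM against 3.41 and 2.43. The sums were 56.5 and 64.8 against 118 and 46.9 for hepatoblast markers (5 of 6). None of the measured markers was at 0 counts in any library, and 0 of 4 lymphoid markers were in the table. Knockout-labelled replicate 1 thus had the largest granulocyte and megakaryocyte marker sums, the latter made up mostly of Itga2b. Of the 8 measured macrophage markers, Vcam1, C1qa, C1qb and Emr1 were lower in both knockout-labelled libraries, and the groups overlapped in the rest. The part of either in the values below was not tested.

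No member of the family passed the test. The edgeR quasi-likelihood test called 0 of the 46 at an adjusted p below 0.05, where 0.103% of all genes were called, and the smallest adjusted p was 0.354. The unadjusted p was below 0.05 for 2 members (4.35%), both with higher values in knockout-labelled samples, against 11.9% of all genes (9.82% higher and 2.08% lower). DESeq2 also called 0 members, where it called 374 of all 10716 genes. So did limma-voom, which called 8 of all genes, and the likelihood ratio test of edgeR, which called 349. At an unadjusted p below 0.05 these tools had 5, 2 and 3 members, in that order. The matching shares of all genes are not given here, so those counts have no background to be read against. The authors' deposited table put 0 of the 46 below an adjusted p of 0.05 (0.0747% of all genes), and their adjusted p ran from 0.429 to 0.994. The log2 fold changes of the members ran from -0.70 (Dhx33) to 0.86 (Dhx40), with a median of -0.09 beside -0.00077 for all genes. The 95% interval of the fold change stayed between -1 and 1 for 34 of the 46, so for those a 2-fold difference lies outside the interval. It included 0 for 44.

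Summed over the family, the transcripts took 5366 and 5325 CPM in knockout-labelled samples and 5494 and 5635 in the controls. Both knockout-labelled values lay below both control values in 19 members (41.3%, against 26.7% of all genes) and above them in 11 (23.9%, against 27.4%), and the groups overlapped in 16. The groups were thus apart in 30 members (65.2%), against 54.0% of all genes. The gap between the knockout-labelled replicates was larger than the difference between the groups in 24 members, and the gap between the controls was larger in 10. Of the knockout-labelled replicates, number 1 was the more distant from the mean of the controls in 37 of the 46 members (80.4%), close to the 82.6% of all genes. Without control replicate 8 the family median was 0.0091, so its sign rests on that library. In bulk samples fewer cells with a transcript and less of it per cell cannot be told apart.

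**Figure D1:**
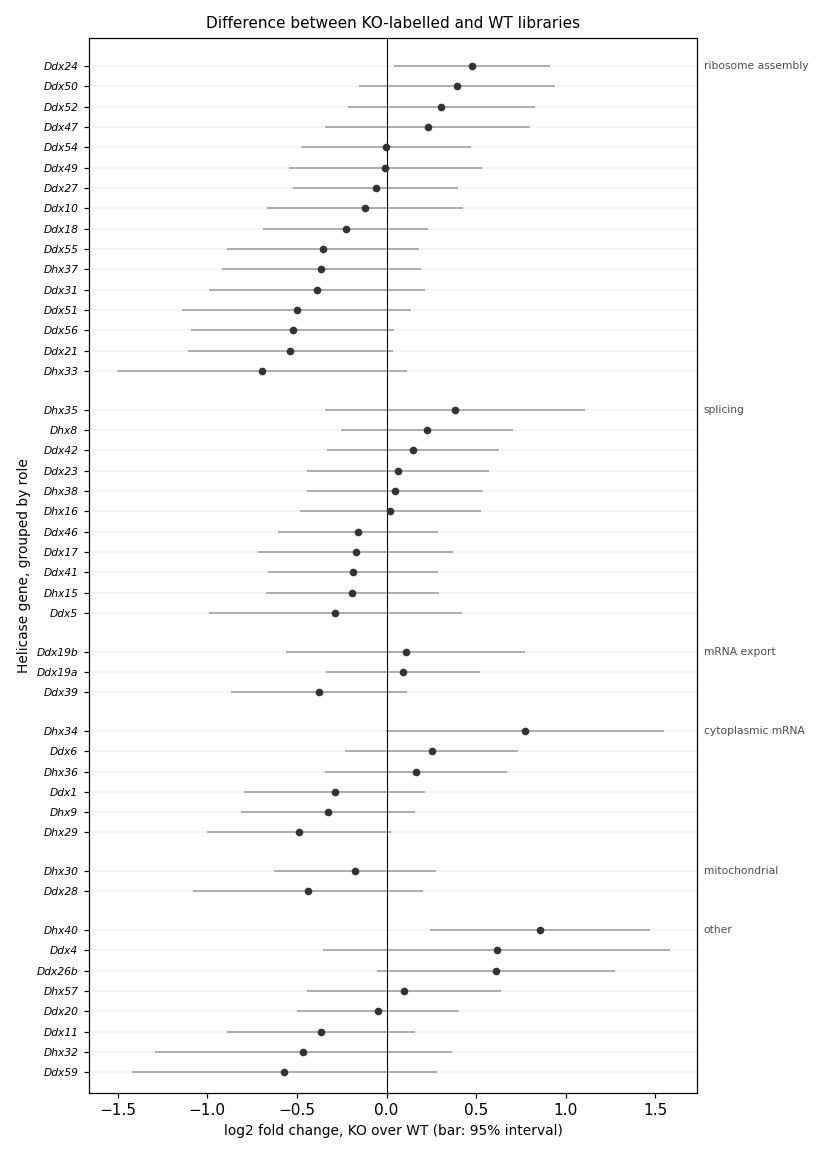
log2 fold change (x axis, knockout-labelled over control) of the 46 helicase genes, grouped by role, with points for the estimate of edgeR's quasi-likelihood fit and bars for its 95% interval. The estimates lie between -0.70 and 0.86, and the bars of 44 genes include 0.

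The levels per length spanned a wide range. In CPM per kb of exon the mean over the 4 libraries had a median of 18.4 over the members, from 0.532 for Ddx4 to 138 for Ddx5. Ddx5, a coregulator of transcription and splicing, had 125 ± 36.6 CPM per kb in knockout-labelled samples and 152 ± 17.6 in the controls (SD, n = 2 each). Below it came Dhx15, which releases the spent spliceosome, with 92.5 ± 9.0 and 105.6 ± 1.55, and Ddx17, the paralog of Ddx5, with 83.8 ± 12.2 and 94.4 ± 7.03. The neighbours Ddx5, Dhx15 and Ddx17 overlapped within these SDs in knockout-labelled samples, so their order there is not fixed. Next were Dhx9 (71.1 ± 4.26 and 89.2 ± 0.648), Ddx26b (77.2 ± 20.9 and 50.5 ± 6.43) and Ddx1 (53.8 ± 8.95 and 65.7 ± 4.88), each with the knockout-labelled value first. Genes of the spliceosome had a median level of 26.7 CPM per kb and those of ribosome assembly 17.1. Ddx4, the germ-cell helicase known as Vasa, was near the lower limit of the table with 2.12 and 1.56 CPM in knockout-labelled samples and 1.05 and 1.33 in the controls.

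**Figure D2:**
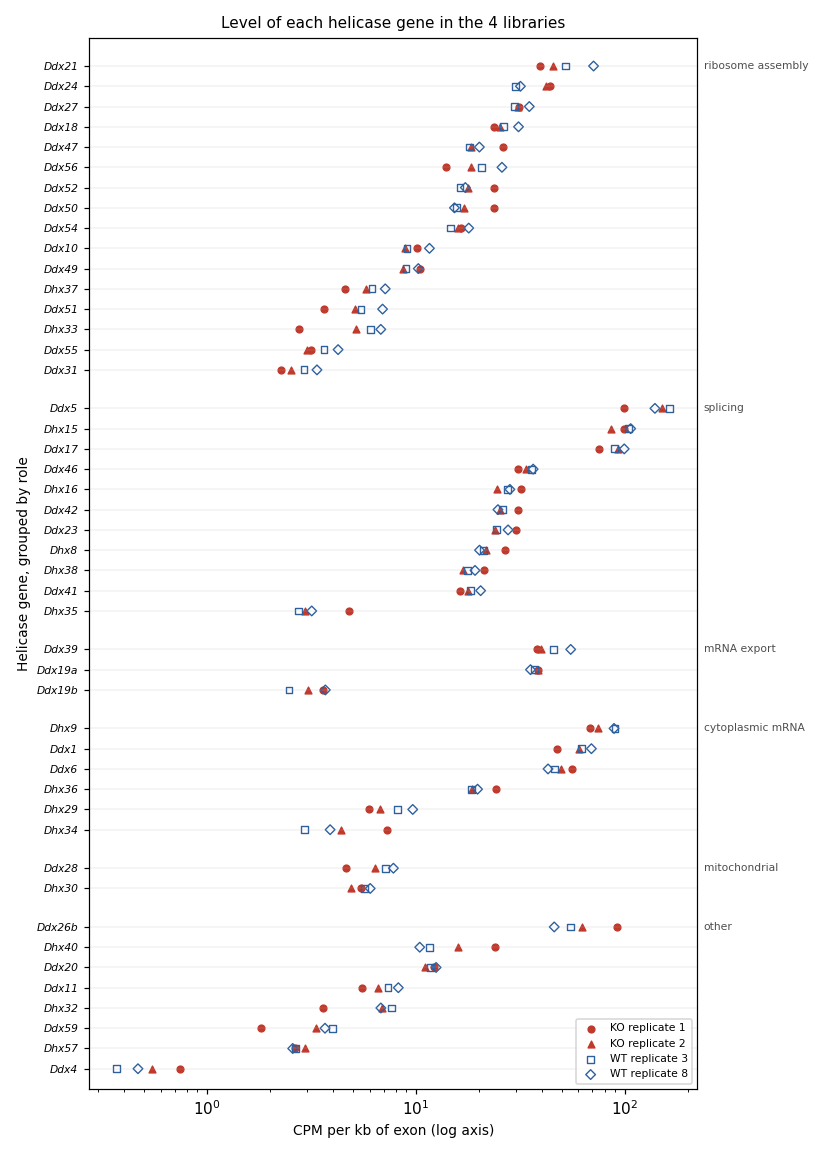
Level of each helicase gene in CPM per kb of exon (x axis, log scale), with filled red symbols for the knockout-labelled libraries and open blue symbols for the controls. Ddx5 has the highest mean level (138) and Ddx4 the lowest (0.532), and for most genes the 4 symbols lie close together on this scale.

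The largest role group was ribosome assembly, with 16 members that act in the nucleolus on ribosomal RNA precursors. None passed the test. Of the 16, 12 had negative log2 fold changes, and both knockout-labelled values lay below both controls in 8 (26.7% of all genes) and above them in 3 (27.4% of all genes). The group median was -0.18. Set against the control mean, knockout-labelled replicate 1 gave -0.16 and replicate 2 gave -0.19. The controls themselves differed by a median of 0.22 in the same genes, control replicate 8 being higher than replicate 3. Without control replicate 8 the group median was -0.032, and without control replicate 3 it was -0.32.

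Ddx21, which binds ribosomal RNA precursors and ribosomal genes, had 186 and 216 CPM in knockout-labelled samples and 248 and 336 in the controls. Its log2 fold change was -0.54 (SE 0.23, 95% interval -1.11 to 0.034, edgeR adjusted p = 0.433). Both knockout-labelled values lay below both controls, and the controls lay farther from each other than the knockout-labelled libraries did. Dhx33, which works in the transcription of ribosomal genes, had 14.9 and 28.0 CPM in knockout-labelled samples and 32.9 and 36.8 in the controls (log2 fold change -0.70, SE 0.33, edgeR adjusted p = 0.433). Here knockout-labelled replicate 1 was the low library, and replicate 2 was nearer to the controls than to replicate 1. Ddx56, of large-subunit assembly, had 35.5 and 46.5 CPM against 52.4 and 65.4 in the controls (log2 fold change -0.52, SE 0.23, edgeR adjusted p = 0.433). Ddx51, of the same pathway, had 19.1 and 26.7 CPM against 28.6 and 36.3 in the controls (-0.50, SE 0.26). In Ddx56 and Ddx51 the groups did not overlap, and the nearest libraries of the groups were closer to each other than either pair of replicates.

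Ddx24 stood on the other side. This nucleolar helicase had 138 and 132 CPM in knockout-labelled samples and 94.6 and 99.9 in the controls. Group means were 135 ± 3.87 and 97.2 ± 3.78 CPM (SD, n = 2 each). The log2 fold change was 0.47 (SE 0.18, 95% interval 0.040 to 0.91, unadjusted p = 0.0370, edgeR adjusted p = 0.418). The replicates of each group were close together and the groups were well apart, yet the difference did not pass over all genes. Ddx24 lies on chromosome 12 of NCBIM37 from 104646186 to 104664077 on the minus strand.

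The remaining ribosome assembly genes had smaller fold changes. Ddx55 (16.05 and 15.5 CPM against 18.6 and 21.7), Dhx37 (21.8 and 27.3 against 29.3 and 33.9), Ddx31 (8.02 and 8.89 against 10.3 and 11.9) and Ddx18 (58.5 and 62.8 against 65.3 and 76.9) had both knockout-labelled values below both controls, with log2 fold changes of -0.35, -0.36, -0.39 and -0.23. Ddx50 (65.0 and 47.1 CPM against 43.1 and 42.2) and Ddx52, of small-subunit assembly (78.8 and 59.2 against 54.2 and 57.4), had both values above the controls, at 0.39 and 0.31. In both of these genes knockout-labelled replicate 1 was the high library. The groups overlapped for Ddx47 (130.0 and 91.2 CPM against 89.0 and 99.7), Ddx10 (34.1 and 30.0 against 30.6 and 39.2), Ddx27 (147 and 147 against 141 and 165), Ddx49 (30.8 and 25.3 against 26.3 and 30.1) and Ddx54 (64.9 and 62.7 against 57.6 and 70.5). Their log2 fold changes ran from -0.12 (Ddx10) to 0.23 (Ddx47). Of the exon length of Ddx49, 29.8% is shared with Homer3 on the opposite strand, and the strand setting of the counting is not given in the sources used here.

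Ddx21 and Ddx50 are paralogs that lie side by side on chromosome 10, on the minus strand, with 13493 bases between them (Ddx21 from 62042996 to 62065046 and Ddx50 from 62078540 to 62113966). Their DEVD boxes are printed above. Per kb of exon, Ddx21 had 1.67 and 2.67 times the level of Ddx50 in knockout-labelled samples and 3.34 and 4.63 times in the controls. The ratio was lower by 0.90 on the log2 scale in knockout-labelled samples, and the groups did not overlap. That separation was fixed by the values above. In both knockout-labelled libraries Ddx21 lay below both controls and Ddx50 above them. A two-sided exact permutation test gave p = 0.333, the smallest that 2 libraries against 2 allow. Of the 3 paralog pairs compared, which were chosen after their values were seen, the ratios overlapped between the groups in the other two. For Ddx5 over Ddx17 they were 1.31 and 1.63 in knockout-labelled samples and 1.84 and 1.403 in the controls (exact permutation p = 0.667), and for Ddx19a over Ddx19b 10.7 and 12.6 against 14.9 and 9.60 (exact permutation p = 1.0). Adjusted over the 3 pairs, each exact permutation p was 1.0. How reads shared between paralogs were counted is not given in the sources used here.

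Of the 11 splicing helicases none passed. Their log2 fold changes ran from -0.29 (Ddx5) to 0.38 (Dhx35). The groups overlapped in 7 of the 11, and in 4927 of all 10716 genes. The group median was 0.021. Set against the control mean, knockout-labelled replicate 1 gave 0.20 and replicate 2 gave -0.097, so the replicates lay on opposite sides of the controls. Of the helicases that drive the spliceosome through its steps, Ddx23, which hands the splice site over before the first step, had 164 and 131 CPM in knockout-labelled samples and 132 and 151 in the controls. Dhx16, which activates the complex, had 131 and 100.4 CPM against 112 and 115, with a log2 fold change of 0.021 (95% interval -0.49 to 0.53). Dhx38, of the second step, had 89.1 and 70.8 CPM against 74.1 and 80.5, at 0.048 (95% interval -0.44 to 0.54). In each of these 3 genes the knockout-labelled replicates bracketed the controls or overlapped with them, with replicate 1 the highest library of the 4.

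Dhx8, which releases the spliced mRNA, had 134 and 109 CPM in knockout-labelled samples and 106 and 101 in the controls (log2 fold change 0.23, SE 0.20). Dhx15 had 298 and 259 CPM against 314 and 321 (-0.19, SE 0.20), and Ddx46, which acts at the branch point, 178 and 194 against 206 and 209 (-0.16, SE 0.18). Ddx42, linked to the same particle, had 131 and 106 CPM against 110 and 104, and Ddx41 had 35.9 and 39.0 against 40.2 and 45.0. Dhx8 thus had both knockout-labelled values above the controls, and Dhx15, Ddx46 and Ddx41 had both below, by small margins. Dhx35, a spliceosome component with a less well described role, had 24.6 and 15.3 CPM in knockout-labelled samples and 14.2 and 16.4 in the controls, where only replicate 1 stood apart. The coregulator Ddx5 had 570 and 868 CPM in knockout-labelled samples and 949 and 805 in the controls (log2 fold change -0.29, SE 0.29, edgeR adjusted p = 0.617). Ddx17 had 358 and 440.2 CPM against 426 and 473 (-0.17, SE 0.22). For Ddx5 and Ddx17 alike, knockout-labelled replicate 1 was the lowest library and replicate 2 lay among the controls.

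The export group had 3 members. Ddx39, a paralog of the TREX export helicase, had 196 and 204 CPM in knockout-labelled samples and 235 and 284 in the controls (log2 fold change -0.38, SE 0.20, edgeR adjusted p = 0.441). The groups did not overlap, and 17.4% of its exon length is shared with Cd97 on the opposite strand. Ddx19a and Ddx19b, which act at the cytoplasmic face of the nuclear pore, had log2 fold changes of 0.090 (95% interval -0.34 to 0.52) and 0.11 (95% interval -0.56 to 0.77). Ddx19a had 114 and 113 CPM against 109 and 105, and Ddx19b 24.3 and 20.4 against 16.6 and 24.8. These genes lie in tandem and have similar sequences, so their separate values are uncertain.

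Helicases of cytoplasmic mRNA, translation and decay numbered 6, and none passed. Dhx34, a factor of nonsense-mediated decay, had 33.4 and 20.2 CPM in knockout-labelled samples and 13.5 and 17.9 in the controls (log2 fold change 0.77, SE 0.32, unadjusted p = 0.0510, edgeR adjusted p = 0.423). Both knockout-labelled values lay above both controls, replicate 1 by far the most. Dhx29, which helps the small ribosomal subunit scan structured mRNA leaders, had 26.4 and 29.6 CPM against 36.0 and 42.5 in the controls (-0.49, SE 0.21, unadjusted p = 0.0584, edgeR adjusted p = 0.433). Here the replicates of each group were near each other and the groups did not overlap.

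Dhx9, which unwinds long double-stranded RNA and is a known binding partner of ADAR1, had 314 and 342 CPM in knockout-labelled samples and 414 and 409.8 in the controls. Group means were 328 ± 19.7 and 412 ± 2.99 CPM (SD, n = 2 each). The log2 fold change was -0.33 (SE 0.20, 95% interval -0.81 to 0.16, edgeR adjusted p = 0.466). All values of the knockout-labelled libraries were below those of the controls, and the difference did not pass. Ddx1, a subunit of the tRNA ligase complex, had 119 and 151 CPM against 156 and 173 (-0.29, SE 0.21). Ddx6, which links translational repression to decapping, had 339.8 and 302 CPM against 279 and 260.2 (0.25, SE 0.20). Dhx36, which resolves G-quadruplexes and is needed in mouse blood formation, had 106 and 81.6 CPM against 81.4 and 86.6 (0.16, SE 0.21, 95% interval -0.35 to 0.67). The groups were apart for Ddx1 and Ddx6, in opposite directions, and overlapped for Dhx36.

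Of the mitochondrial helicases, Ddx28, which acts in assembly of the mitochondrial ribosome, had 8.68 and 11.97 CPM in knockout-labelled samples and 13.4 and 14.6 in the controls (log2 fold change -0.44, SE 0.26, edgeR adjusted p = 0.462). Dhx30, found in mitochondrial RNA granules, had 53.5 and 47.6 CPM against 55.3 and 59.1 (-0.18, SE 0.18, edgeR adjusted p = 0.627). Both genes had lower values in both knockout-labelled libraries, and neither passed.

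The other 8 members have other or less well described roles. Dhx40, a DEAH-box gene of little described function, had the smallest p of the family. It had 100.4 and 66.4 CPM in knockout-labelled samples and 48.5 and 43.6 in the controls. Group means were 83.4 ± 24.02 and 46.1 ± 3.48 CPM (SD, n = 2 each). The log2 fold change was 0.86 (SE 0.25, 95% interval 0.24 to 1.47, unadjusted p = 0.0145, edgeR adjusted p = 0.354). Both knockout-labelled values were above both controls, and replicate 1 was farther from them. Without that replicate the log2 fold change was 0.53. Dhx40 lies on chromosome 11 of NCBIM37 from 86582348 to 86621198 on the minus strand.

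Ddx26b, one of the genes in which no box could be placed, had 659 and 447 CPM in knockout-labelled samples and 395 and 329 in the controls (log2 fold change 0.61, SE 0.27, edgeR adjusted p = 0.433). The groups did not overlap, and replicate 1 was again the outer library. Dhx32, the other such gene, had 14.9 and 28.6 CPM in knockout-labelled samples and 31.8 and 28.4 in the controls (-0.46, SE 0.34), where replicate 1 alone was low. Ddx59, linked to signalling through cilia, had 5.38 and 9.85 CPM against 11.8 and 10.8 (-0.57, SE 0.35), with both knockout-labelled values below the controls and replicate 1 the lowest. Ddx11, a DNA helicase of sister chromatid cohesion, had 22.9 and 27.3 CPM against 30.6 and 34.2 (-0.37, SE 0.21). The values of Ddx20, of the SMN complex that builds spliceosomal particles, were 50.9 and 46.1 CPM against 48.5 and 51.9 (-0.050, 95% interval -0.50 to 0.40), and those of Dhx57 were 13.4 and 14.9 against 13.4 and 13.1 (0.098). The log2 fold change of Ddx4 was 0.61 (SE 0.39).

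Split by the box rather than by role, the 29 genes whose box ends in the aspartate codon had a median log2 fold change of -0.12, and 19 of them were negative. The 15 whose box ends in the histidine codon had a median of 0.021, and 7 of them were negative. Without knockout-labelled replicate 1 the medians were -0.11 for the aspartate class and -0.18 for the histidine class, so their order rests on that library. No gene of either class passed. The difference between the classes was not tested.

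Without knockout-labelled replicate 2 the picture changed. The comparison then rests on knockout-labelled replicate 1 alone, which is assumed to vary like the controls. It called 13 members (28.3%), where 32.6% of all genes were called (17.3% higher and 15.3% lower). The 6 higher members were Dhx40 (log2 fold change 1.11), Dhx34 (1.08), Ddx26b (0.85), Dhx35 (0.68), Ddx50 (0.60) and Ddx52 (0.49). The 7 lower members were Dhx33 (-1.23), Ddx59 (-1.08), Dhx32 (-1.02), Ddx51 (-0.78), Ddx56 (-0.74), Ddx28 (-0.70) and Dhx29 (-0.59). In that fit the median log2 fold change was -0.18 for the 16 ribosome assembly genes and 0.19 for the 11 splicing genes, beside -0.017 for all genes. No fit without knockout-labelled replicate 1, control replicate 3 or control replicate 8 called a member. Ddx24, with close replicates, was not among the 13 either.

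**Figure D3:**
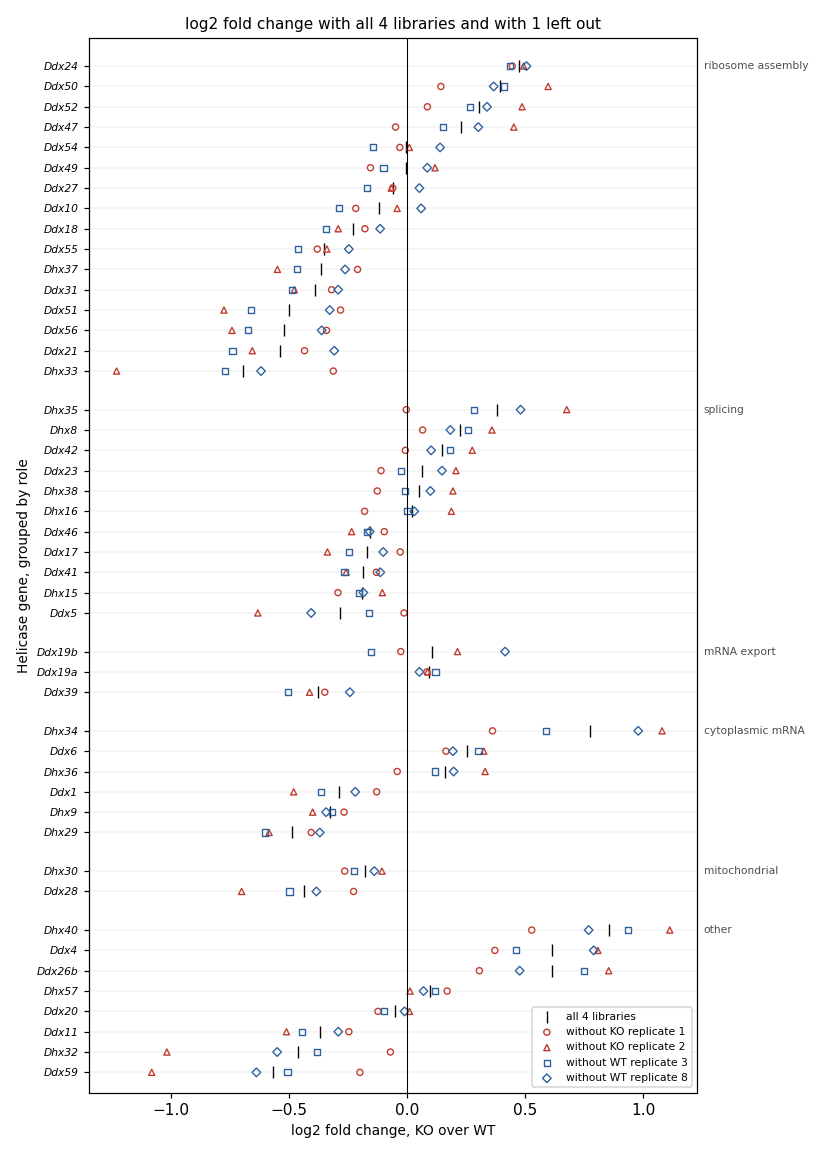
log2 fold change (x axis, knockout-labelled over control) of the 46 helicase genes from all 4 libraries (black bars) and with each library left out in turn (red symbols, a knockout-labelled library; blue symbols, a control). For Dhx33, Dhx32 and Ddx59 the fit without knockout-labelled replicate 2 lies near or beyond -1, and the fit without replicate 1 is much nearer to 0.

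Related helicases under other names, and proteins that work with helicases, were read from 4 lists, and 0 of the 60 measured genes passed. The unadjusted p was below 0.05 for 5 of them (8.33%), all with higher values in knockout-labelled samples, against 11.9% of all genes (9.82% higher). Among 15 measured helicases of related families under other names, 1 was among the 5 and the median log2 fold change was -0.098. Mov10, which assists RNA silencing, had 17.9 and 13.9 CPM in knockout-labelled samples and 9.14 and 7.27 in the controls (0.96, SE 0.27, edgeR adjusted p = 0.346). Ascc3, of ribosome rescue, had 228 and 104 CPM against 94.8 and 101.5 (0.76, SE 0.37), and Helz had 69.8 and 40.0 against 33.6 and 36.6 (0.64, SE 0.30). Mov10 was higher in both knockout-labelled libraries, whereas Ascc3 and Helz stood out in replicate 1. Eif4a1, the DEAD-box helicase of translation initiation, was chosen after its values were seen. It had 660.2 and 788 CPM in knockout-labelled samples and 914 and 1071 in the controls (-0.46, SE 0.24, edgeR adjusted p = 0.440).

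G-patch proteins, the activators of DEAH-box helicases, were measured for 18 of 24 list entries. Their median log2 fold change was -0.21, and 11 of the 18 were negative. Both knockout-labelled values lay below both controls in 9 (26.7% of all genes) and above them in 5 (27.4% of all genes). An unadjusted p below 0.05 in edgeR was found for 3 genes, all higher in knockout-labelled samples. Ftsjd2, an mRNA cap methyltransferase that binds Dhx15, had 250.2 and 159 CPM in knockout-labelled samples and 117 and 121 in the controls (0.78, SE 0.26, edgeR adjusted p = 0.390). Rbm5, a splicing regulator, had 309 and 182 CPM against 153 and 138 (0.76, SE 0.29), and Bat4 had 40.4 and 23.2 against 17.3 and 19.1 (0.81, SE 0.31). All of these were highest in replicate 1, and replicate 2 was also above both controls. Their partner Dhx15 had lower values in both knockout-labelled libraries (log2 fold change -0.19).

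The 12 partners of Ddx6 in decapping and repression had a median of 0.050. The exonuclease gene Xrn1 had 105 and 55.5 CPM in knockout-labelled samples and 47.4 and 45.5 in the controls (0.79, SE 0.32, unadjusted p = 0.0489, edgeR adjusted p = 0.419). The decapping genes Dcp2 (61.8 and 51.8 CPM against 44.9 and 49.6) and Dcp1b (7.24 and 5.36 against 5.69 and 4.06) had the next smallest p. Dcp2 had both knockout-labelled values above the controls, and Dcp1b overlapped with them. Of the exon junction and export partners 15 of 16 were measured, with a median of -0.17. In 8 of the 15 both knockout-labelled values lay below both controls, as they did in 26.7% of all genes. The smallest p belonged to the export partner Nxt1 (24.8 and 30.1 CPM against 36.8 and 35.2). Next came Thoc3 of TREX (36.6 and 45.6 against 47.9 and 54.8) and the exon junction protein Magoh (38.2 and 57.2 against 59.9 and 61.0). In that order the log2 fold changes were -0.39, -0.32 and -0.34, and none passed (edgeR adjusted p from 0.444 to 0.505).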

How the data were processed

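The table deposited by the authors holds raw whole-number counts of each gene for 4 libraries of sorted fetal liver erythroid cells, together with the p-values and adjusted p-values of their own comparison. Each of its genes is above 1 CPM in 2 or more libraries. The builds mm9 and NCBIM37 and the tools HTSeq, TopHat2 2.0.8, Trimmomatic 0.30, limma and edgeR are listed, without their roles, in the submitters' processing notes. Strand setting and the treatment of shared reads are not given in the sources used here.

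From the counts, edgeR 4.0.16 (R 4.3.3) was run on all 10716 genes with filterByExpr, which removed 0 genes, TMM scaling, estimateDisp, glmQLFit (robust=TRUE, legacy=TRUE) and glmQLFTest. Its p-values were adjusted by Benjamini and Hochberg across the table, called at 0.05, and rest on 2 residual degrees of freedom. The common biological coefficient of variation was 25.6%. The SE was the absolute log2 fold change over the square root of F, and intervals use the test's degrees of freedom. Log2 values per library used a prior count of 2. The script was tested on simulated data. CPM per kb divides by the merged exon length in GENCODE vM1 (NCBIM37), in which all 46 members were found by Ensembl identifier. Boxes were found by translating coding sequences. Alternatives were RLE scaling, no scaling, 2 other filters, DESeq2 1.42.0, limma-voom 3.58.1, the likelihood ratio test, legacy=FALSE, robust=FALSE and leaving out each library. The members, role groups and partner lists were chosen with earlier results of these data known. By rule, any member could be named, and in each partner list the 3 genes with the smallest p; giving all members their values goes beyond it.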

Additional observations from a re-analysis of the deposited data

How the results depend on the processing

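No paired analysis was possible because the groups share no replicate numbers. The helicase family held 0 called members under each of the 9 changes of scaling, filter, tool or moderation, and from 0 to 13 with 1 library left out. Its median log2 fold change was -0.17 without library scaling, where the median of all genes was -0.069, so that the family lay -0.097 from all genes, beside -0.090 with scaling. The median ran from -0.17 to 0.0091 with 1 library left out. The 11 genes called over the whole table became 349 in the likelihood ratio test, 374 in DESeq2 and 87 when libraries were not scaled, and from 27 to 3492 with 1 library left out. The cause of these changes was not tested, and leaving out a library also leaves fewer samples. Members whose log2 fold change took the other sign had adjusted p of at least 0.528 with all libraries. Without library scaling these were Ddx23 (-0.014), Dhx16 (-0.053) and Dhx38 (-0.027), each above that all-gene median. With 1 library left out, signs changed without knockout-labelled replicate 1 for Ddx42 (range over the left-out libraries -0.0078 to 0.28), Ddx47 (-0.049 to 0.45), Dhx16 (-0.18 to 0.19), Dhx35 (-0.0040 to 0.68) and Dhx36 (-0.042 to 0.33). They changed without that replicate and also without control replicate 3 for Ddx19b (-0.15 to 0.41), Ddx23 (-0.11 to 0.21) and Dhx38 (-0.13 to 0.19). Without knockout-labelled replicate 2 the sign changed for Ddx20 (-0.12 to 0.0096). It changed without that replicate and also without control replicate 8 for Ddx49 (-0.16 to 0.12) and Ddx54 (-0.14 to 0.14), and without control replicate 8 alone for Ddx10 (-0.29 to 0.059) and Ddx27 (-0.17 to 0.051). With 2 libraries a group and the spread between the knockout-labelled replicates, the unadjusted 95% interval included 0 for 44 of the 46 members. No member passed after adjustment over all genes.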
